A study of Homo sapiens with 16 samples.

Results

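The matrix metalloproteinases (MMPs) and the tissue inhibitors of metalloproteinases (TIMPs) were followed through the response of human bronchial epithelial cells to hepatocyte growth factor (HGF). The set held 10 genes, MMP1, MMP2, MMP3, MMP9, MMP10, MMP13, MMP14, TIMP1, TIMP2 and TIMP3, out of 42665 gene names on the array, and it was taken as every non-control probe whose annotated name equals one of them. Of these, 8 had a probe bright enough to be tested. Expression had been measured on 16 one-colour Agilent arrays, 4 per group, in 16HBE cells, a nontumorigenic bronchial line immortalised with SV40 large T antigen. The groups were 16HBE-WT cells, which carry unedited MET, without HGF and with HGF at 20 ng/mL for 24 h, and 16HBE-ex14 cells, edited by CRISPR/Cas9 so that MET lacks exon 14, without and with the same HGF. The samples of 16HBE-WT+HGF are titled 16HBE YY, a name the labels do not explain, and they were taken as wild type because their description and genotype fields say so; every value of HGF in 16HBE-WT rests on this. All groups were kept without serum for 2 h before the treatment. The edited cells were clone F by the study's text, so a difference between the genotypes cannot be told apart here from a difference between 1 clone and the parental line. The 4 replicates were cultured a week apart. Arrays are not labelled by week, so replicate numbers follow their place on the 2 slides, and each slide carried 2 arrays of every group.

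MMPs are zinc endopeptidases that are made as inactive proenzymes and cleave the extracellular matrix once activated. MMP1 and MMP13 are collagenases that open the triple helix of fibrillar collagens, MMP3 and MMP10 are stromelysins that cleave proteoglycans, fibronectin and laminin and can activate other proenzymes, MMP2 and MMP9 are gelatinases that act on denatured and basement membrane collagen, and MMP14 is anchored in the plasma membrane. TIMPs are secreted proteins that occupy the active site of MMPs. In bronchial epithelium these enzymes take part in the movement of cells during wound repair and in remodelling of the airway wall, and HGF is a long-known inducer of epithelial cell scattering and invasion through its receptor MET.

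Levels are given as the log2 signal of a probe relative to the 75th percentile of its array, so that a step of 1 is a doubling, and levels of different genes are not compared because each probe has its own brightness. That percentile moved with the genotype, with group medians of 169.7 and 176.4 intensity units in 16HBE-WT without and with HGF against 230.65 and 212.35 in 16HBE-ex14. The share of probes well above background moved with the 16HBE-ex14+HGF group, at a median of 57.85% there against 52.085% to 52.81% in the others. The part of these shifts in the results was not tested, and values of the members under other scalings are given where they change a call. Of the 7 epithelial markers examined, 7 were well above background on every array, and the 4 leukocyte markers on the array were too. Of the 8 fibroblast markers, COL1A1 and PDGFRB were above background on every array and COL1A2, COL3A1, DCN, PDGFRA and THY1 on none, and of the 4 endothelial markers VWF and CDH5 were above it on every array and PECAM1 and KDR on none. This takes the brightest probe of each gene, and further probes of PDGFRB (1 of 2), VWF (2 of 3) and PTPRC (3 of 5) were above background on 0 or 1 arrays. The summed linear signal of the leukocyte list, relative to the array's 75th percentile, was 2.325 to 2.672 in 16HBE-WT, 1.691 to 2.36 in 16HBE-WT+HGF, 1.708 to 2.488 in 16HBE-ex14 and 1.154 to 1.966 in 16HBE-ex14+HGF. Of its genes, CSF1R fell by 1.45 on the log2 scale with HGF in 16HBE-ex14 (adjusted p = 0.00313, limma). The epithelial basal keratin KRT5 fell by 2.31 in the same comparison and was lower in untreated 16HBE-ex14 than in 16HBE-WT by -2.57. The matrix gene LUM of the fibroblast list was above background in the 16HBE-WT groups and below it in the 16HBE-ex14 groups, where the summed signal of that list was 0.3578 to 0.5308, against 0.5827 to 1.107 in 16HBE-WT and its HGF group. The part of these markers in the results was not tested. MET itself stood at 4.98 and 5.01 in 16HBE-WT without and with HGF and at 5.11 and 5.18 in 16HBE-ex14. Where its probe lies relative to the edited exon was not looked up, so these values are no check of the edit.

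MMP1, the interstitial collagenase, was the member with the largest difference. Without HGF it was at or near the detection limit in both genotypes, with values of -4.81, -4.09, -4.53 and -4.53 in 16HBE-WT and of -4.55, -4.93, -3.94 and -5.13 in 16HBE-ex14, where 1 of 8 arrays was well above background. With HGF, 16HBE-WT gave -3.78, -4.54, -2.67 and -3.77, and 16HBE-ex14 gave -0.17, -1.20, -0.04 and 0.23. All 4 arrays of 16HBE-ex14+HGF thus stood above all 12 others, while the other 3 groups overlapped. MMP1 rose by 4.34 ± 0.38 (SE) on the log2 scale with HGF in 16HBE-ex14, a 20.3-fold difference (95% confidence interval 3.53 to 5.15 on the log2 scale, adjusted p = 0.000156, limma), with 4.05 on the first slide and 4.63 on the second. Since only 1 array of the untreated 16HBE-ex14 group was above background, the fold depends on how background is treated, and it was 1.78 on the log2 scale (adjusted p = 8.17e-06) with normexp correction. The probe, at chr11:102660697-102660756 (hg19), is printed on 10 spots of each array. In RNA from whole cultures, more expressing cells and more RNA per cell cannot be told apart. The median SD between the 10 spots was 0.07 in 16HBE-ex14+HGF and 0.70 in 16HBE-ex14.

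MMP3, stromelysin 1, lies beside MMP1 on chromosome 11 and was measured at chr11:102706694-102706753. It was -4.34, -4.72, -2.62 and -3.49 in 16HBE-ex14 and -1.64, -1.92, -0.47 and -1.23 in 16HBE-ex14+HGF. The groups did not overlap, and the untreated array nearest to the treated ones was replicate 3, which was also the highest untreated 16HBE-ex14 array for MMP1, MMP9 and TIMP1. The rise was 2.48 ± 0.43 (SE), or 5.57-fold (adjusted p = 0.0069), with 2.75 and 2.20 on the 2 slides. MMP3 was well above background on 3 of the 4 untreated arrays, and with normexp correction the rise was 1.03 on the log2 scale (adjusted p = 0.000867). The call was lost when only the 8 arrays compared were fitted (adjusted p = 0.0623). In 16HBE-WT the values were -4.19, -3.43, -4.18 and -3.62 without HGF and -3.24, -3.43, -2.43 and -3.83 with it. These overlap, and the mean difference of 0.62 did not pass the test (adjusted p = 1). Leaving out replicate 3 of 16HBE-WT+HGF gave 0.35, and normexp correction gave 0.14.

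The other members of this chromosome 11 cluster were dim. MMP13, collagenase 3 (chr11:102813773-102813832), was well above background on 2 arrays, both of 16HBE-ex14+HGF, with -3.83 and -4.11 there and -4.71 and -4.51 on the remaining pair. The 16HBE-ex14 arrays without HGF ran from -6.12 to -5.32, below all 4 treated arrays. With the dim group set at the detection limit of its arrays, the difference of the group means was 1.20-fold. This is no lower bound, since only 2 of 4 bright arrays were above background and the others entered at their measured values. The probe was not tested because it was above background on fewer than 4 arrays. In 16HBE-WT, MMP13 was not well above background on any array. MMP10, stromelysin 2 (chr11:102641405-102641464), was not well above background on any of the 16 arrays, with values from -6.60 to -4.98.

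**Figure D1:**
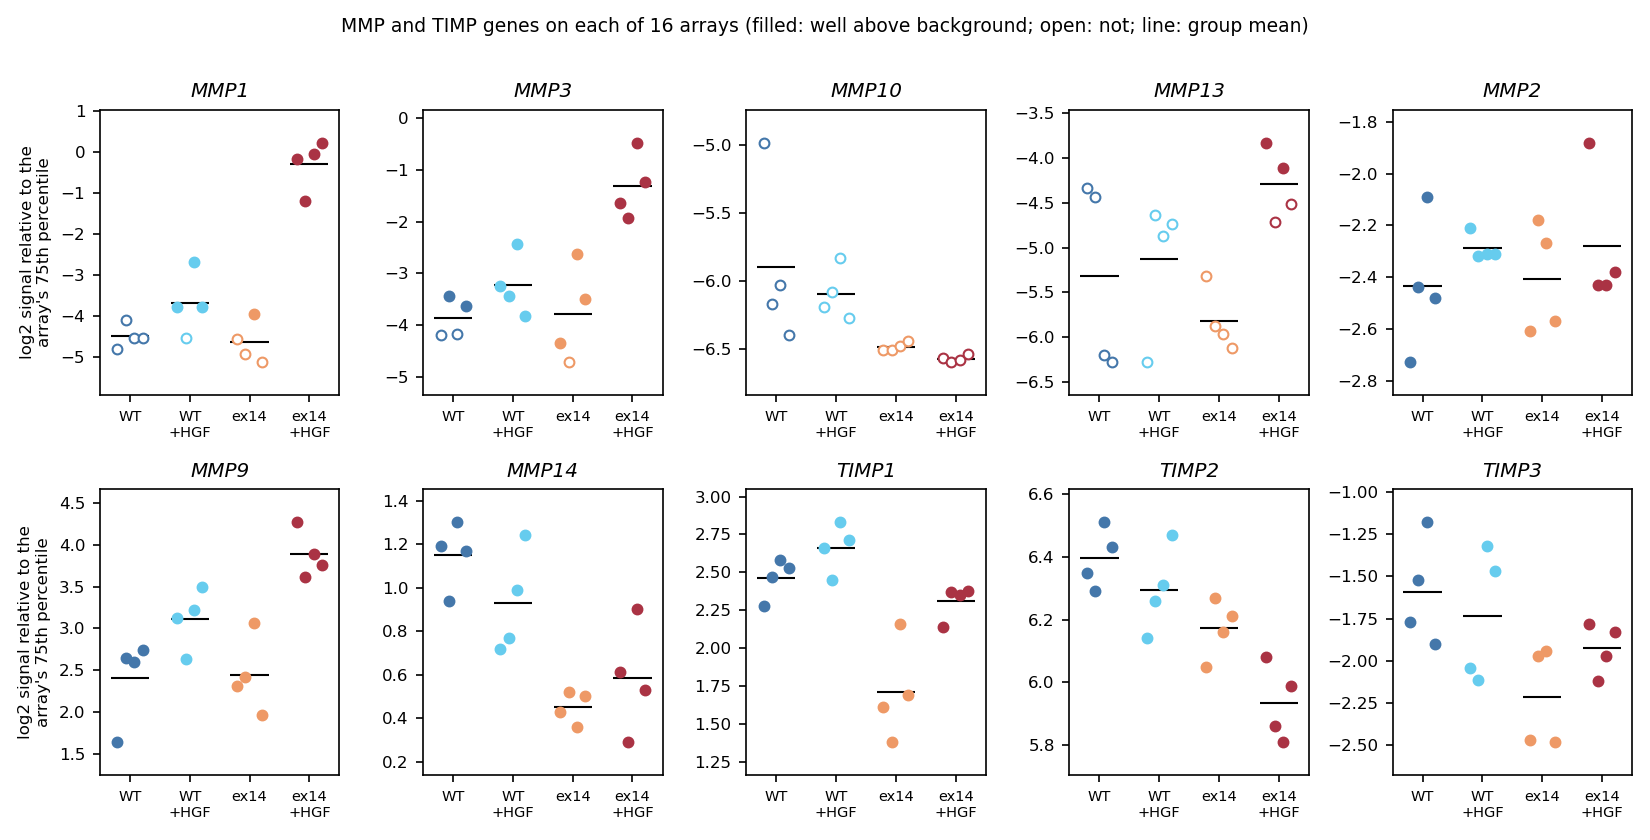
Log2 signal of the standing probe of each member relative to the 75th percentile of the array (vertical axis, scaled for each gene) on each of the 16 arrays, by group. Filled points are well above background, open points are not, and lines are group means; the 4 arrays of 16HBE-ex14+HGF stand above all others for MMP1, MMP3 and MMP9.

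MMP9, gelatinase B, was well above background on all arrays. Its values were 1.64, 2.65, 2.60 and 2.74 in 16HBE-WT, 3.12, 2.63, 3.22 and 3.49 in 16HBE-WT+HGF, 2.31, 2.42, 3.07 and 1.96 in 16HBE-ex14 and 4.27, 3.62, 3.89 and 3.76 in 16HBE-ex14+HGF. The treated 16HBE-ex14 arrays were above every other array, and the untreated arrays of the 2 genotypes overlapped. MMP9 rose by 1.45 ± 0.28 (SE), or 2.72-fold, with HGF in 16HBE-ex14 (adjusted p = 0.0112), with 1.58 and 1.31 on the 2 slides. In 16HBE-WT the difference was 0.71 (95% confidence interval 0.12 to 1.30), with an unadjusted p of 0.0215 and an adjusted p of 0.962 (limma), so it was not called, and it was 0.45 without 16HBE-WT replicate 1, the lowest array of MMP9. The probe is at chr20:44645121-44645180.

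MMP2, gelatinase A, and MMP14, the membrane-anchored protease that activates the MMP2 proenzyme on the cell surface, showed no called response to HGF. The group means of MMP2 were -2.44 and -2.29 in 16HBE-WT without and with HGF and -2.41 and -2.28 in 16HBE-ex14, with SDs of 0.05 to 0.27, and all groups overlapped. HGF changed it by 0.13 in 16HBE-ex14 (95% confidence interval -0.20 to 0.46), an interval that leaves out a change of 1.5-fold, which is 0.585 on this scale. Its tested probe is at chr16:55540518-55540577, and a second probe of that name, at chr16:55423671-55423730, was below background on all 16 arrays. MMP14 (chr14:23315791-23315850) was 1.19, 0.94, 1.30 and 1.17 in 16HBE-WT and 0.43, 0.52, 0.36 and 0.50 in 16HBE-ex14, with no overlap between the genotypes. With HGF it was 0.72, 0.77, 0.99 and 1.24 in 16HBE-WT and 0.61, 0.29, 0.90 and 0.53 in 16HBE-ex14, where the ranges did overlap. The response of MMP14 to HGF in 16HBE-ex14 was 0.13 (95% confidence interval -0.16 to 0.43), and it ran from 0.03 to 0.23 over the 16 fits without 1 array.

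Among the inhibitors, TIMP1, a broad MMP inhibitor that acts poorly on membrane-type enzymes such as MMP14, was the one with called differences. It was 2.28, 2.47, 2.58 and 2.53 in 16HBE-WT and 2.66, 2.45, 2.83 and 2.71 in 16HBE-WT+HGF. It was 1.61, 1.38, 2.16 and 1.69 in 16HBE-ex14 and 2.14, 2.37, 2.35 and 2.38 in 16HBE-ex14+HGF, and these groups overlapped through replicate 3 of the untreated and replicate 1 of the treated arrays. TIMP1 rose by 0.60 ± 0.14 (SE), or 1.52-fold, with HGF in 16HBE-ex14 (adjusted p = 0.0369), just past the fold limit of 1.5. The call held in 7 of 12 alternatives and was lost under scaling to the array median (0.44, adjusted p = 0.177) or the E1A spike-ins (0.48, 0.0824), with normexp (0.56, under the fold limit), with no filter on dim probes (0.0806) and on the 8 arrays compared alone (0.153). It was also lost in 7 of the 16 fits that left out 1 array. The arrays concerned were 16HBE-WT+HGF replicate 1 (adjusted p = 0.0524), 16HBE-ex14 replicates 1, 2 and 4 (adjusted p = 0.0898, 0.132 and 0.105) and 16HBE-ex14+HGF replicates 2, 3 and 4 (adjusted p = 0.0954, 0.107 and 0.107). The TIMP1 probe is at chrX:47444666-47444725.

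TIMP2 and TIMP3 were not called with HGF in either genotype. TIMP2, which also bridges MMP14 and the MMP2 proenzyme, had group means of 6.39 ± 0.10 and 6.29 ± 0.14 (SD, n = 4) in 16HBE-WT without and with HGF and of 6.17 ± 0.10 and 5.94 ± 0.12 in 16HBE-ex14. HGF changed it by -0.23 in 16HBE-ex14 (95% confidence interval -0.44 to -0.03, adjusted p = 0.27), and its treated and untreated arrays overlapped. TIMP3, which binds to the matrix and also inhibits ADAM proteases, had means of -1.59 ± 0.31 and -1.73 ± 0.40 in 16HBE-WT and of -2.21 ± 0.30 and -1.92 ± 0.15 in 16HBE-ex14, in the same order. Its difference with HGF in 16HBE-ex14 was 0.29 (95% confidence interval -0.15 to 0.73). The TIMP2 probe is at chr17:76849063-76849122 and the TIMP3 probe at chr22:33258540-33258599.

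In all, 4 of the 8 tested members rose with HGF in 16HBE-ex14 and 0 fell, where a call needed an adjusted p below 0.05 and a fold above 1.5. Of the 26368 gene names tested, 1.13% were called higher and 0.967% lower in this comparison. Of the 4 members, TIMP1 was called in 7 of 12 alternatives and MMP3 in 11. The background depends on the processing too, since of the called probes 52.84% were higher here, against 24.48% with scaling to the array median and 35.49% to the E1A spike-ins, and the 687 called probes became 347 without 16HBE-ex14 replicate 2 and 247 on the 8 arrays alone. The median log2 difference was 0.45 over the 8 members and 0.06 over all tested genes. The study had already named MMP1, MMP3 and MMP9 among the genes that differed on these arrays, and the members were chosen with earlier results known. These counts and medians are therefore no test of the family. In 16HBE-WT no member was called, and 0% of the tested gene names were called in either direction. At an unadjusted p below 0.05 limma gave 1 member, MMP9, and 1681 of 34600 probes. Adjustment over the 5 contrasts together gave 84 called probes in 16HBE-WT, of which 73.81% were higher. MMP1 was on average 0.80 higher with HGF in 16HBE-WT (95% confidence interval -0.01 to 1.61), against an untreated group that was not above background. With that group set no lower than the detection limit of its arrays, the difference of the group means was 1.45-fold (log2 0.54). This is no lower bound, since replicate 2 of 16HBE-WT+HGF was not above background and entered at its measured -4.54. The measured 0.80 became 0.46 without replicate 3 of 16HBE-WT+HGF, the brightest of that group, and 0.16 with normexp correction. MMP1 was above background on 3 of 4 arrays of 16HBE-WT+HGF and on 0 of 4 without HGF, and the wide interval does not show that it failed to respond in these cells.

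**Figure D2:**
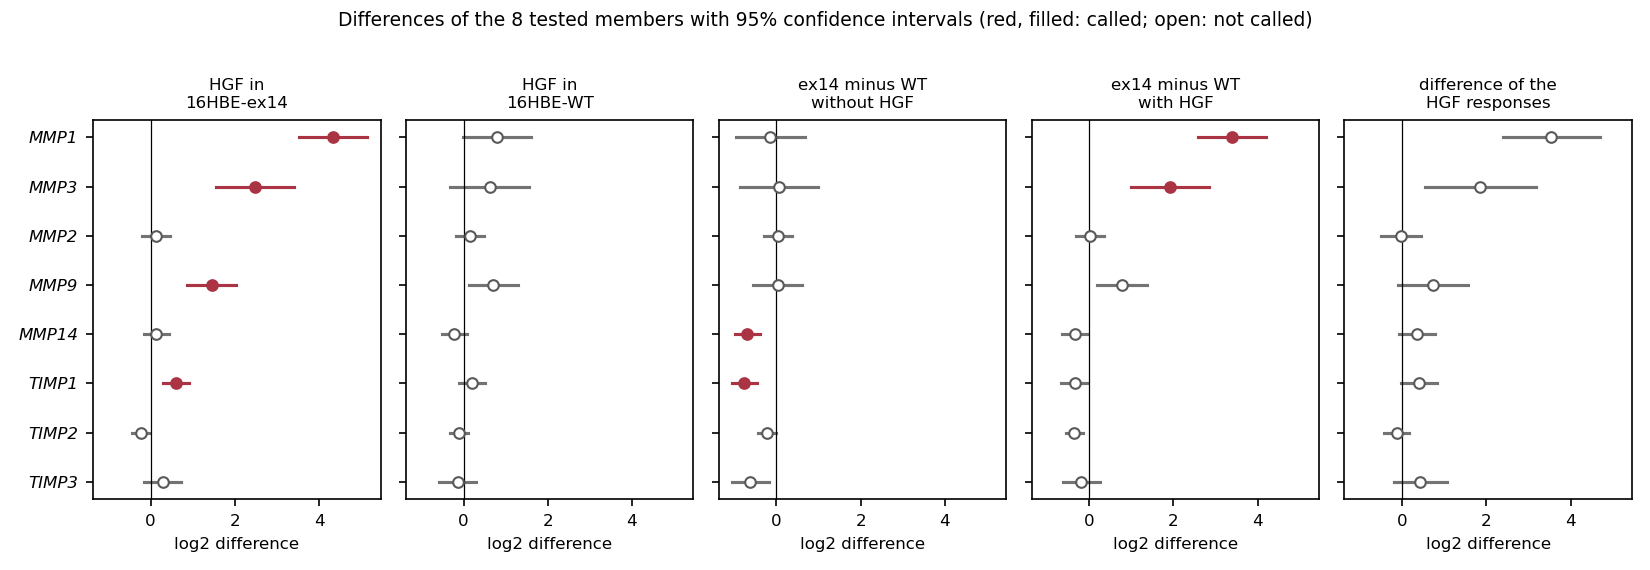
Log2 differences of the 8 tested members in each of the 5 comparisons (horizontal axis), with 95% confidence intervals from limma. Red filled points are called and open points are not; the intervals of MMP1 and MMP3 are the widest, and MMP1, MMP3, MMP9 and TIMP1 are called for HGF in 16HBE-ex14.

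The genotypes were compared without HGF to ask how exon 14 skipping goes with the basal level of these genes. MMP14 and TIMP1 were lower in 16HBE-ex14 and no member was higher, against 4.77% of tested gene names called lower and 4.48% called higher. Higher probes made up 47.69% of all calls, a share that was 71.51% with scaling to the array median and 75.98% to the E1A spike-ins. MMP14 was lower by a log2 difference of -0.70 ± 0.14 (SE), or 1.62-fold (adjusted p = 0.00274), with -0.59 and -0.80 on the 2 slides. TIMP1 was lower by -0.76 ± 0.14 (SE), or 1.69-fold (adjusted p = 0.0021), with -0.88 and -0.63. Neither pair of groups overlapped, and both calls held in all 16 fits without 1 array. Both are close to the fold limit, and MMP14 was called in 9 of 12 alternatives and TIMP1 in 11. MMP14 was under the limit with scaling to the array median (-0.56) and with normexp (-0.58), and scaling to the E1A spike-in controls in place of the 75th percentile, which itself differed between the genotypes, gave -0.53 for MMP14 and -0.58 for TIMP1, both under it.

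TIMP3 differed in the same direction, by -0.62 ± 0.21 (SE), with groups that did not overlap and an adjusted p of 0.0502. It passed in 5 of 12 alternatives, with slide (adjusted p = 0.0353) or array row (0.0381) as a block, with a trended and robust prior (0.0329) and with either stricter filter on dim probes (0.0431 and 0.0407), but was -0.48 and -0.45 under median and E1A scaling and -0.37 with normexp. It also passed in 5 fits that left out 1 array, namely 16HBE-WT replicate 4 (0.0382), 16HBE-WT+HGF replicates 2 and 3 (0.0445 and 0.0386) or 16HBE-ex14 replicates 2 and 3 (0.0486 and 0.0454). MMP1, MMP2, MMP3 and MMP9 differed between the untreated genotypes by -0.14, 0.03, 0.06 and 0.03, with overlapping arrays. For MMP1 and MMP3, above background on 1 and 5 of these 8 arrays, the 95% confidence intervals were wide, at -0.96 to 0.67 and -0.87 to 0.99.

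With HGF present, MMP1 was higher in 16HBE-ex14 than in 16HBE-WT by 3.40 ± 0.38 (SE), or 10.5-fold (adjusted p = 2.83e-05), and MMP3 by 1.92 ± 0.43 (SE), or 3.79-fold (adjusted p = 0.0057). These 2 of 8 tested members were called higher and none lower, against 5.36% and 5.29% of tested gene names. On the 2 slides MMP1 gave 3.47 and 3.32, and MMP3 gave 1.56 and 2.28. With normexp correction the log2 differences were smaller, at 1.39 for MMP1 (adjusted p = 3.96e-06) and 0.72 for MMP3 (adjusted p = 0.0027). MMP9 was 0.77 ± 0.28 (SE) higher with no overlap but an adjusted p of 0.0632, and it was called in 5 of 12 alternatives and 2 of 16 fits without 1 array. These were scaling to the array median (0.86, adjusted p = 0.046) or to the E1A spike-ins (0.86, 0.0464), normexp correction (0.83, 0.0111), slide as a block (0.0481), the 8 arrays compared alone (0.0386), and the fits without 16HBE-WT replicate 1 (0.0298) or 16HBE-ex14 replicate 3 (0.0424). Over the fits without 1 array its adjusted p reached 0.173. TIMP2 was lower by -0.36 ± 0.10 (SE), with an adjusted p of 0.016 but a fold of 1.28 that is under the limit. TIMP1 was lower by -0.35 (adjusted p = 0.102) and MMP14 by -0.35 (adjusted p = 0.0941). In order of level, MMP1, MMP3 and MMP9 thus stood highest in 16HBE-ex14+HGF, followed by 16HBE-WT+HGF, whose arrays overlapped those of both untreated groups. TIMP1 stood highest in 16HBE-WT+HGF, then 16HBE-WT, 16HBE-ex14+HGF and 16HBE-ex14, and each group overlapped the next in this order.

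Whether the genotypes responded differently to HGF was tested directly as the difference of the responses. No member was called, nor was any tested gene name (0%), with a smallest adjusted p of 0.199 by limma. At an unadjusted p below 0.05 there were 2 members and 1586 of 34600 probes. Adjustment over the 5 contrasts together, in place of within each contrast, gave 162 called probes and 1 called member. The measured responses of MMP1 differed by 3.54 ± 0.54 (SE) on the log2 scale (95% confidence interval 2.39 to 4.69, unadjusted p = 1.07e-05, adjusted p = 0.199), with 3.76 and 3.32 on the 2 slides. Since 1 of the 8 untreated arrays behind it was above background, its size depends on how background is treated. It passed with normexp correction, at 1.62 (adjusted p = 0.0284), with a trended and robust prior (adjusted p = 0.0194), without 16HBE-WT+HGF replicate 3 (0.0483) and without 16HBE-ex14 replicate 3 (0.0438). MMP3 differed by 1.86 (unadjusted p = 0.00891, adjusted p = 0.845), or by 0.88 with normexp. MMP9, TIMP1 and MMP14 differed by 0.74, 0.40 and 0.35, each with an adjusted p of 1 and an interval that included 0.

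**Figure D3:**
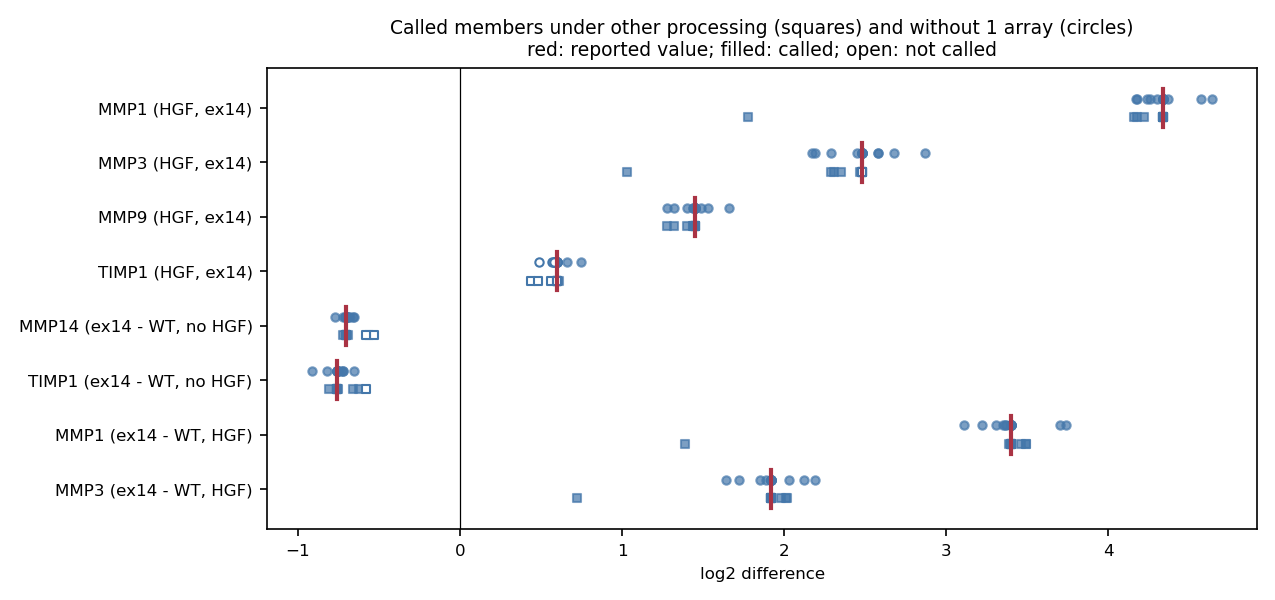
Log2 difference (horizontal axis) of the 8 called results of the members as reported (red bar), under other processing (squares) and without each of the 16 arrays in turn (circles). Filled marks are called and open marks are not; the isolated squares of MMP1 and MMP3 are the normexp values, and the open marks lie with TIMP1 and MMP14 near the fold limit and with MMP3 for the fit on 8 arrays (adjusted p = 0.0623).

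The sequence before the transcript start is shown for the 4 members held by the RefSeq promoter table used here (GRCh38.p14), namely TIMP1, TIMP3 and MMP14, whose levels were lower in untreated 16HBE-ex14 (TIMP3 outside the threshold), and MMP10, the cluster member that stayed below background. Each run is the 250 bases that end just before the start, read 5′ to 3′ on the gene's strand, from chrX:47582186-47582435 (plus strand) for TIMP1, chr22:32801455-32801704 (plus) for TIMP3, chr14:22836335-22836584 (plus) for MMP14 and chr11:102780629-102780878 (minus) for MMP10. Capitals mark matches on either strand to the motifs named after the sequences.
TIMP1: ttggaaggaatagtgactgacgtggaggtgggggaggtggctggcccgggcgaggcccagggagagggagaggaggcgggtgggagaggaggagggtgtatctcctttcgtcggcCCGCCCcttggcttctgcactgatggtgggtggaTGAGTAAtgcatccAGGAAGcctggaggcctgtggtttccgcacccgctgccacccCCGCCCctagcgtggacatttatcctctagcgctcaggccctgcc
TIMP3: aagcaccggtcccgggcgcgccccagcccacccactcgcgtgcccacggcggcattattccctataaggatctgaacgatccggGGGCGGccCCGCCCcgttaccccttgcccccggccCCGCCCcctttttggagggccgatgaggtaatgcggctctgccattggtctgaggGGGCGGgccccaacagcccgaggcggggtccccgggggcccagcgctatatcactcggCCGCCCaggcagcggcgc
MMP14: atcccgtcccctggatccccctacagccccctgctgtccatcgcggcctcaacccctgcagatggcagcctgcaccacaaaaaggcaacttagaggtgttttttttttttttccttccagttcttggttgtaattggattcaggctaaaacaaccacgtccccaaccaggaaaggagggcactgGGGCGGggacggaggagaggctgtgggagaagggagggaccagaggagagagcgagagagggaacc
MMP10: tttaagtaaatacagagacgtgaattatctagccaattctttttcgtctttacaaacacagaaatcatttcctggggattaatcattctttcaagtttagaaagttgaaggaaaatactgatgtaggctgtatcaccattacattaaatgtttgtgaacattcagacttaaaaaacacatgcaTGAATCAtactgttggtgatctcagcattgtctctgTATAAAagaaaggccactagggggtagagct
The motifs searched were the AP-1 core TGAGTCA and its form TGANTCA with any middle base, the AP-1 variant TGAGTAA, the PEA3-type ETS site AGGAAG, the GC box GGGCGG and the TATA box TATAAA. The first 2 overlap by construction, and TGAGTAA was added after the TIMP1 sequence had been read. TIMP1 held TGAGTAA with its first base 101 bases before the start, AGGAAG 87 bases before it and GC boxes at 135 and 45 bases. TIMP3 held 5 GC boxes, the nearest at 18 bases, and none of the other motifs. MMP14 held 1 GC box, at 66 bases. MMP10 held TGAATCA, a form of TGANTCA, at 67 bases and TATAAA at 31 bases. The GC content of these runs was 64.8% for TIMP1, 72.4% for TIMP3, 56.8% for MMP14 and 34.4% for MMP10. Over the 35116 promoters of the table, windows of the same length held TGAGTCA in 4.203%, TGANTCA in 6.573%, TGAGTAA in 2.207%, AGGAAG in 28.71%, GGGCGG in 42.64% and TATAAA in 10.72%. A match describes the letters only.

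**Figure D4:**
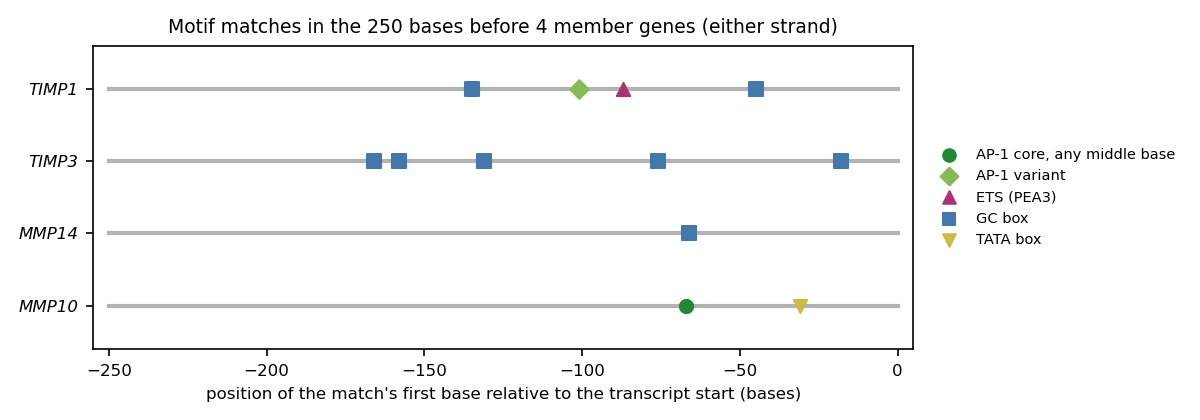
Position of the first base of each motif match relative to the transcript start (horizontal axis, in bases) in the 250 bases before TIMP1, TIMP3, MMP14 and MMP10. TIMP1 has an AP-1 variant and an ETS match between its GC boxes, TIMP3 and MMP14 have GC boxes only, and MMP10 has an AP-1 core form and a TATA box.

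AP-1, a dimer of FOS and JUN family proteins, and ETS factors of the PEA3 group are known activators of MMP genes. A list of 13 genes was examined, with 7 of the FOS and JUN families and, of the ETS family, ETS1, ETS2 and ELF3 beside ETV1, ETV4 and ETV5 of the PEA3 group. All 13 were tested, and with HGF in 16HBE-ex14 3 rose and 2 fell, where 1.13% of all tested gene names were called higher and 0.967% lower. FOSL1, which encodes the AP-1 subunit FRA-1, rose by 0.95 ± 0.20 (SE; adjusted p = 0.0169), from a group mean of 3.61 to 4.56. ETV4 and ETV5 rose by 1.24 (adjusted p = 0.0177) and 0.79 (adjusted p = 0.017). ELF3, an ETS factor of epithelia, fell by 1.47 (adjusted p = 0.00157), and JUND, an AP-1 subunit, fell by 0.63 (adjusted p = 0.00281). The median over the 13 was -0.15, against 0.06 over all tested genes. None of the 13 was called with HGF in 16HBE-WT. Without HGF, FOSL1 was already higher in 16HBE-ex14 than in 16HBE-WT by 0.60 (adjusted p = 0.0468) and JUND lower by -0.64 (adjusted p = 0.000364). That is 1 of the 13 called higher and 1 lower, against 4.48% and 4.77% of tested gene names. The counts take the brightest tested probe of each gene, which for ETV1 gave means of -2.48 in 16HBE-WT and -2.66 in 16HBE-ex14. A dimmer tested probe of ETV1, above background on 6 of 16 arrays, gave -4.06 and -5.68 there. Its means with HGF were -3.58 in 16HBE-WT and -5.57 in 16HBE-ex14. With HGF, FOSL1 was higher by 1.10 and ETV5 by 0.89, while ELF3, JUND, FOSL2 and ETS2 were lower by -1.71, -1.01, -0.82 and -0.77, all called, against 5.36% of tested gene names higher and 5.29% lower.

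Of 11 genes that activate, bind or restrain MMPs, 8 were tested, and their counts stand against the same shares of all tested gene names called, with 4.48% higher and 4.77% lower between the genotypes without HGF. With HGF in 16HBE-ex14 only CD44, a hyaluronan receptor that can hold MMP9 at the cell surface, was called, with a rise of 0.80 ± 0.13 (SE; adjusted p = 0.00485), although its other probe, at 0.58, was not (adjusted p = 0.137). PLAU, the urokinase that generates plasmin and so feeds the activation of proenzymes, was higher in 16HBE-ex14 than in 16HBE-WT by 0.76 without HGF (adjusted p = 0.00397) and by 1.17 with it (adjusted p = 0.000134), and its other probe was called only with HGF (0.58, adjusted p = 0.0744, and 1.07, adjusted p = 0.00247). LCN2, whose product forms a complex with MMP9, was higher by 1.45 (adjusted p = 0.000101) and 1.84 (adjusted p = 1.15e-05) in the same comparisons. THBS1, a matrix protein that can bind MMPs, was lower by -0.97 with HGF (adjusted p = 0.000442), and its other probe was also called without it (-0.66, adjusted p = 0.017). None of the 8 was called with HGF in 16HBE-WT. Of the 17 further genes of the MMP and TIMP families on the array, 9 were tested and 0 were called in any of the 5 comparisons by limma. At an unadjusted p below 0.05 there were 0 with HGF in either genotype, 1 between the genotypes without HGF and 3 with it. Of all 34600 tested probes, that unadjusted limit took 4928 with HGF in 16HBE-ex14 and 1681 with HGF in 16HBE-WT. Between the genotypes it took 10462 without HGF and 10958 with it. The counts of family genes take the brightest tested probe of each gene. Over these probes the differences with HGF in 16HBE-ex14 ran from -0.28 for MMP25 to 0.39 for MMP17. The probes of MMP25 disagree, and its dimmer one gave 0.52 (unadjusted p = 0.0318, adjusted p = 0.285 by limma).

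**Figure D5:**
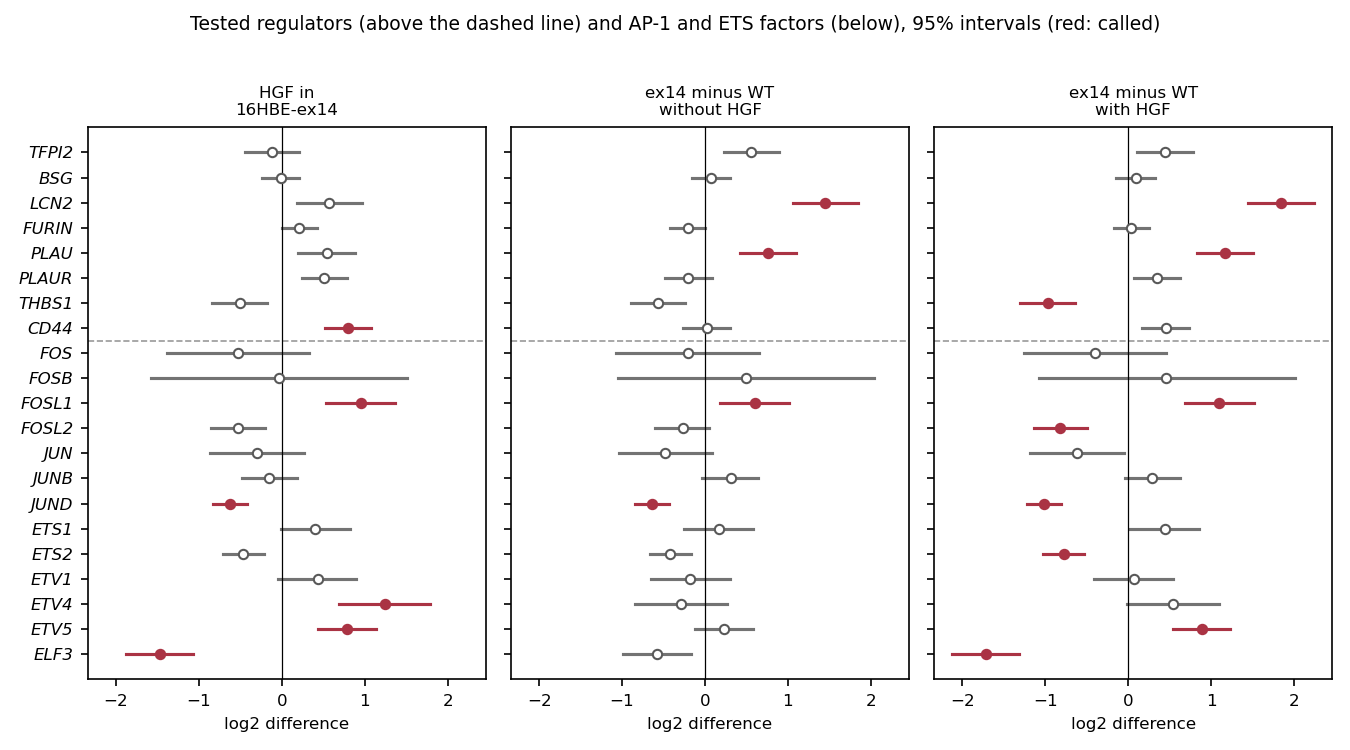
Log2 differences (horizontal axis) with 95% confidence intervals of the 8 tested regulators, above the dashed line, and the 13 AP-1 and ETS factors, below it, in 3 comparisons. Red filled points are called; FOSL1, ETV4, ETV5 and CD44 lie to the right and ELF3 and JUND to the left for HGF in 16HBE-ex14.

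Over the 16 arrays, the level of MMP1 moved with those of MMP3 (r = 0.92) and MMP9 (r = 0.87), and MMP3 with MMP9 (r = 0.81). TIMP2 ran the other way, at r = -0.70 with MMP1 and -0.73 with MMP3, and MMP14 moved with TIMP2 and TIMP3 (r = 0.71 and 0.70). These are descriptions over arrays that share the 4 group means, the slides and the scaling, with no test. Among the 26367 other gene names, patterns close to that of MMP1 by Pearson's r were those of NGEF (0.96) and SERPINA1 (0.95). Nearest to MMP3 were DDIT4L, LHX1 and SEC11C (each 0.96). Nearest to MMP9 were the transcript ENST00000452010 (0.97), MYH16 (0.96) and EPHB2 (0.95), and nearest to TIMP1 were CIRBP-AS1 (0.97), QSOX1 (0.97) and P3H1 (0.96). All these genes were picked for following members called for HGF in 16HBE-ex14 over the same arrays, so their own rises there are no separate evidence. NGEF, SERPINA1, DDIT4L, LHX1, ENST00000452010 and MYH16 were called in that comparison, with rises of 1.05 to 1.63 on the log2 scale. EPHB2, at 0.52 (adjusted p = 0.0286), was under the fold limit, and SEC11C and the 3 genes nearest to TIMP1 had adjusted p-values of 0.0576 to 0.087.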

How the data were processed

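RNA of 16 samples, 4 per group, had been hybridised to one-colour arrays with probes of 60 bases. The files deposited by the authors give spot intensity as processed by Agilent Feature Extraction 10.7.3.1 (named in the submitters' processing notes), on a linear scale, after local background correction and with no scaling between arrays. The series' joint table repeats these numbers at all 1007616 spots. The authors name limma for their comparisons.

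Intensities were converted to log2 without outlier spots (0.112%), each array was centred on its own 75th percentile, and repeated spots of a probe were averaged, in R 4.3.3 with limma 3.58.1. Probes well above background (on more than 0.5 of their spots) on at least 4 of 16 arrays were tested, 34600 of 58201. One mean per group was fitted with lmFit and eBayes, and p-values were adjusted by Benjamini-Hochberg over all tested probes within each of 5 contrasts. A gene stands by its tested probe of highest mean signal. Every member was named, as were MET, called genes of the 3 gene lists, and the 3 nearest patterns of each member called for HGF in 16HBE-ex14. One gene that this rule names is not reported here. CSF1R, MMP17 and MMP25 were named after their values were seen, and the markers KRT5 and LUM also lie outside the rule. The members and lists were chosen with earlier results of these data known. The fit was tested on simulated data. The lowest log2 value well above background had a median of -4.39 over arrays, which limits what could be seen of MMP1, MMP3, MMP10 and MMP13. Probe positions are those of the array annotation (hg19), and their exons were not looked up here. Figures were drawn with matplotlib 3.10.9 in Python 3.11.15.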

Additional observations from a re-analysis of the deposited data

Results flagged for a closer look

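In 5 of the 40 combinations of a member and a group, 1 array lay apart from the other 3 relative to the range of the group (Dixon's criterion). Chance gives this in about 1 of 20 groups. These were MMP2 in 16HBE-WT+HGF replicate 1 (-2.21) and in 16HBE-ex14+HGF replicate 1 (-1.88), MMP9 in 16HBE-WT replicate 1 (1.64), MMP13 in 16HBE-WT+HGF replicate 1 (-6.28) and TIMP1 in 16HBE-ex14+HGF replicate 1 (2.14). The gap can be small, as for MMP2 in 16HBE-WT+HGF, where the SD was 0.05. The MMP13 probe, outside the tests, was well above background on 2 arrays of 16HBE-ex14+HGF and on 0 arrays of the other groups, so its flagged group lay below background.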

How the results depend on the processing

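The rises of MMP1 and MMP9 with HGF in 16HBE-ex14 and the higher MMP1 and MMP3 in 16HBE-ex14 with HGF were called under all 12 alternatives run for single genes and in all 16 fits without 1 array. MMP3 with HGF in 16HBE-ex14 was lost only when just the 8 arrays compared were fitted (adjusted p = 0.0623), which left 2 called members. TIMP1 was lost there as well, as it was under the 4 other alternatives named with its values. Without HGF, 1 member was called under scaling to the array median (MMP14 was lost, at -0.56), 0 under the E1A scaling and 1 under normexp (MMP14 was lost, at -0.58). For the difference of responses 1 member was called under normexp, a trended and robust prior (MMP1 in both) and adjustment over the 5 contrasts together, and the fits without 1 array gave 0 to 1. Scaling to the array median moved the median of all probes for HGF in 16HBE-ex14 from 0.06 to -0.11, and without HGF from -0.02 to 0.12; the share of called probes that were higher then moved from 52.84% to 24.48% and from 47.69% to 71.51%, and with HGF from 49.75% to 65.96%. The E1A scaling gave 35.49%, 75.98% and 66.91%. Values near 0 that changed sign, none of them called, were those of MMP2 and MMP14 with HGF in 16HBE-ex14 under median scaling (-0.03 each), and without HGF MMP1 (quantile 0.05, E1A 0.03), MMP9 (quantile -0.02), MMP2 (normexp -0.11) and MMP3 (normexp -0.17), and with HGF MMP2 (normexp -0.13). Without 1 array they ranged, without HGF, from -0.37 to 0.02 for MMP1, -0.07 to 0.14 for MMP2, -0.33 to 0.37 for MMP3 and -0.22 to 0.19 for MMP9, with HGF from -0.13 to 0.06 for MMP2, and for HGF in 16HBE-ex14 from -0.01 to 0.21 for MMP2. The cause of these changes was not tested. Array rows do not pair the samples (correlations of deviations 0.03 to 0.32 within rows, 0.04 to 0.41 between rows of a slide, and 4 of 16 arrays were nearest to one of their own row). Between slides the correlations ran from -0.36 to 0.03. Their median was -0.2, against 0.2 and 0.21 within a slide. Arrays of the same slide thus resembled each other, and the main fit has no term for slide. With the row as a replicate block 740 probes in place of 687 were called for HGF in 16HBE-ex14, and the called members were 4, 0, 3, 2 and 0 in the 5 comparisons against 4, 0, 2, 2 and 0, the third by TIMP3 without HGF (adjusted p = 0.0381). With slide as a block 820 probes were called for HGF in 16HBE-ex14, and between the genotypes TIMP3 without HGF and MMP9 with HGF were called as well. The 687 probes became 413 under normexp, 247 on the 8 arrays alone, and 347, 365, 363 and 439 without 16HBE-ex14 replicates 2 and 4 or 16HBE-ex14+HGF replicates 3 and 4 (968 without 16HBE-ex14 replicate 3). The shares of called genes in that comparison thus depend on these single arrays. Without 1 array of 16HBE-WT or 16HBE-WT+HGF the count was 641 to 690. Between the genotypes normexp gave 1488 probes in place of 3263 without HGF and 1816 in place of 3739 with it, and no fold limit gave 6346 and 7101. Adjustment over the 5 contrasts together gave 84 probes for HGF in 16HBE-WT and 162 for the difference of responses, against 0 each when adjusted within the contrast.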
